A study of Drosophila melanogaster with 2 samples.

Results

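The genes described here encode the machinery that brings proteins into mitochondria, maintains and transcribes mitochondrial DNA, and shapes and clears the organelle. They are the 33 protein-coding genes outside chromosome 4 whose symbol starts with Tom, Tim or ttm followed by a number, or is one of TFAM, PolG1, PolG2, mtSSB, PolrMT, mTTF, mTerf3, mTerf5, Marf, Opa1, Drp1, Pink1, park, PNPase and fzo. The annotation held 13888 protein-coding genes outside chromosome 4. The rule uses gene symbols and position and no measured value, although it was written with earlier results of these data known.

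MBD-R2 binding was mapped by chromatin immunoprecipitation and sequencing (ChIP-seq) in whole Drosophila melanogaster embryos aged 0 to 24 h. The embryos came from a transgenic strain carrying an MBD-R2-eGFP fusion, and chromatin was recovered with an antibody to GFP. There was 1 group with 2 biological replicates, and no second genotype, treatment or time point. The labels name neither the promoter that drives the fusion nor the state of the endogenous MBD-R2 gene. Because the material was the whole embryo, a weak peak in many cells and a strong peak in few cells cannot be told apart.

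MBD-R2 belongs to the NSL complex, which carries the histone acetyltransferase MOF and sits mainly at the start sites of broadly expressed genes. Most mitochondrial proteins are encoded in the nucleus, made in the cytosol and passed through the TOM complex of the outer membrane. Small TIM chaperones then carry hydrophobic proteins across the intermembrane space, and the TIM23 complex draws proteins with a cleavable presequence into the matrix. The mitochondrial genome is copied and transcribed by enzymes that are themselves imported. Fusion, fission and the PINK1 and parkin pathway set the shape and turnover of the organelle.

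The 150-base promoter stretches below are picked examples: genes with strong or motif-bearing MBD-R2 promoters first, then genes without a promoter peak. Tim9a is shown for its motifs, and its promoter peak was among the weakest of the members. Each runs 5′ to 3′ in the direction of transcription, from 120 bases before to 29 bases after a transcription start site (TSS), and was read from the RefSeq copy of the Release 6 (dm6) assembly. For a gene with a peak the TSS is the one nearest the summit, the position of highest signal in a peak. For a gene without one it is the 5′-most. Capitals mark matches, on either strand, to the DRE (TATCGATA), the E-box CAGCTG, the core of Motif 1 (GGTCACACT) and the word TGGCAAC. The first 3 are core promoter elements of broadly expressed fly genes, and TGGCAAC was picked after these sequences had been read. No motif contains another. PNPase lies at chr3R:31404711-31404860, minus strand. The stretch of mTTF is chr2L:14348761-14348910, minus strand, and that of park is chr3L:21196740-21196889, minus strand. PolrMT is shown at chr2L:1108344-1108493, minus strand, TFAM at chr3R:20576981-20577130, minus strand and Drp1 at chr2L:2585401-2585550, minus strand. The mTerf5 stretch is chr3R:18223653-18223802, minus strand, and the Tim9a stretch chrX:13385145-13385294, plus strand.
PNPase: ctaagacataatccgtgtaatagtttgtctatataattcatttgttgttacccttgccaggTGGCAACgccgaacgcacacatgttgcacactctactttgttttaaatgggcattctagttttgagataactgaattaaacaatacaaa
mTTF: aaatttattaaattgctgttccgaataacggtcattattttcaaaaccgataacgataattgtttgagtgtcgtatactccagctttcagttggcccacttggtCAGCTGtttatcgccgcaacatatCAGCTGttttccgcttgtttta
park: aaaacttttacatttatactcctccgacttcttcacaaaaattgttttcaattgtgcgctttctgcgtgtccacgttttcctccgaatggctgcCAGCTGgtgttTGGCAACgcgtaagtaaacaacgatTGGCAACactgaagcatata
PolrMT: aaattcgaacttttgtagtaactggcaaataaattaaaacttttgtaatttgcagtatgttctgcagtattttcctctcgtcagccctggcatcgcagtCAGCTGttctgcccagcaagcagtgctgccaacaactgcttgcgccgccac
TFAM: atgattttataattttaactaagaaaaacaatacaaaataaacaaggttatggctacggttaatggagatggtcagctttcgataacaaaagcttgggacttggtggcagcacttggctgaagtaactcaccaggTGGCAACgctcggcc
Drp1: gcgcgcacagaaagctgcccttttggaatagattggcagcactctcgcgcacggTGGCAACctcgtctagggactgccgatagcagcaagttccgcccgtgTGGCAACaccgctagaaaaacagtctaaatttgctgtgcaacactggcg
mTerf5: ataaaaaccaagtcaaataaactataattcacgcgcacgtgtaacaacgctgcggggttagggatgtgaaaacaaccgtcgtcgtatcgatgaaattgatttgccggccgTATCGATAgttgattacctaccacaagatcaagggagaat
Tim9a: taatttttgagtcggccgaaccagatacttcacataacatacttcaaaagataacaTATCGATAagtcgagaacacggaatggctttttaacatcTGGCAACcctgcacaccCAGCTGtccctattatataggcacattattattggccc

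The members without a promoter peak are shown by Tim17b at chr3R:3734735-3734884, plus strand, Tim13 at chr3L:11774472-11774621, minus strand, fzo at chr3R:23204005-23204154, minus strand and ttm3 at chr2L:22079512-22079661, plus strand. Of these stretches, that of Tim13 holds 1 capitalised match, an E-box that starts at its TSS.
Tim17b: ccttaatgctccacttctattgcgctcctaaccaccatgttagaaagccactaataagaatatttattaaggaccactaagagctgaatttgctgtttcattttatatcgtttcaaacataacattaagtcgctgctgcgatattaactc
Tim13: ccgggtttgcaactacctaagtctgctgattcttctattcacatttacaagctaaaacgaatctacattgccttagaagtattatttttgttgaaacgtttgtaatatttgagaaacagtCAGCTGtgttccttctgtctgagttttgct
fzo: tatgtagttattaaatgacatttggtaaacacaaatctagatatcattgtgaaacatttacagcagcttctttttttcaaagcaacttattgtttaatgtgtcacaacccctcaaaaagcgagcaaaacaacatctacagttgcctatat
ttm3: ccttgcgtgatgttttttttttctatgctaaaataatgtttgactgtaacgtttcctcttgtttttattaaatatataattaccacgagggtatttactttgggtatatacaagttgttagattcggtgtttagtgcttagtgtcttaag

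MBD-R2 was found at the promoters of 24 of the 33 members (72.7%). The 9 without it included all 7 genes classed here as further copies of import or fusion genes. A gene is called bound here when any of its TSSs had a summit of the main thresholded list no more than 500 bp away. By this rule 44.1% of all protein-coding genes outside chromosome 4 were bound, 6126 in number. The main list was made by the authors from both replicates, with a limit of 0.01 on the irreproducible discovery rate (IDR). The IDR estimates, from the ranks of peaks in paired lists, the share of called peaks that are not reproducible. Every count and median below is a description of the authors' lists, since 1 group with 2 replicates allows no test between conditions.

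By role, binding was complete in 5 groups of members. All 4 TOM subunits, all 4 genes of mitochondrial DNA upkeep, all 5 genes of mitochondrial RNA synthesis and turnover, the 3 fusion and fission genes Marf, Opa1 and Drp1, and both Pink1 and park were bound. Of the 5 small TIM chaperone genes 4 were bound, Tim13 being the exception. Of the 3 principal subunits of the presequence translocase, Tim23 and ttm50 were bound and Tim17b was not. The 7 further copies are Tim17a1, Tim17a2, Tim17b1 and Tim17b2, the Tim50 relatives ttm2 and ttm3, and fzo, a mitofusin needed for mitochondrial fusion in developing sperm. None of these 7 was bound, against 24 of the other 26 members. The classing was made here by role. Tim9a and Tim9b, which share a symbol stem, are counted among the other 26, and both were bound. Tim17b, classed as the principal Tim17 gene, was itself unbound, so no Tim17 gene was bound at 500 bp. With a window of 1000 bp 3 of the 7 were bound, all of them copies of Tim17, which is close to the 47.5% of all genes bound at that window.

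**Figure D1:**
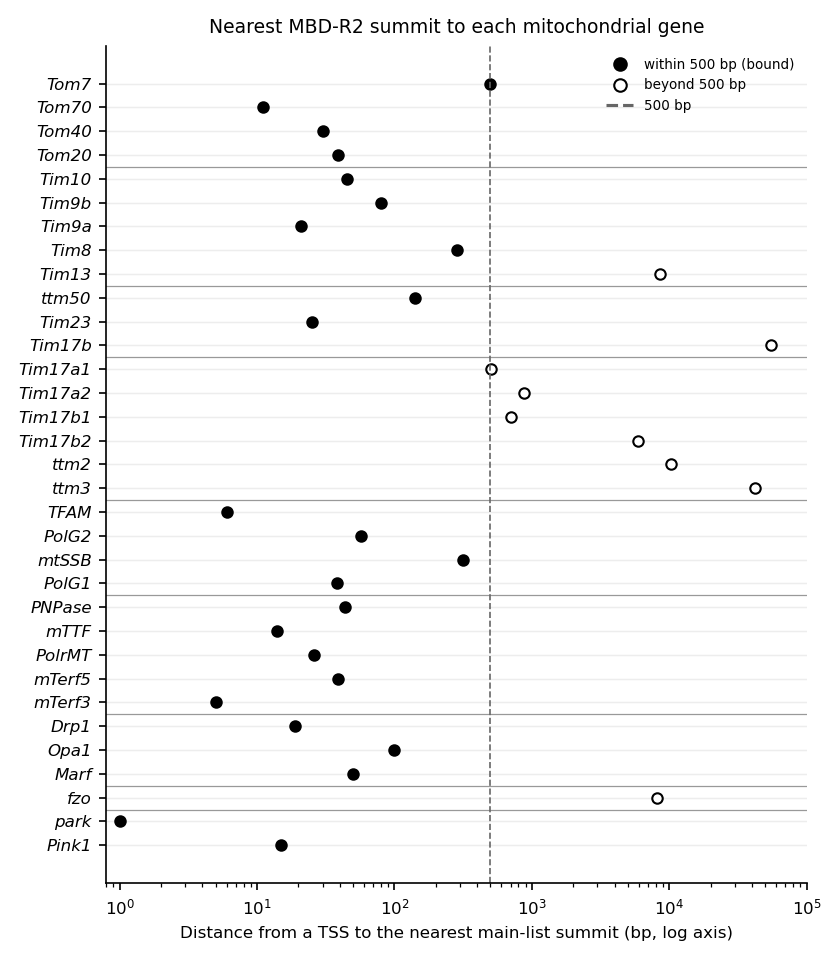
Distance in bp, on a log axis, from a TSS of each of the 33 members to the nearest summit of the main list, grouped by role. Filled points are bound genes and open points unbound ones, and the dashed line is the 500 bp limit. Tom7 at 496 bp and Tim17a1 at 505 bp lie on either side of it, and 6 unbound members lie between 5879 and 54844 bp.

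The strength of a peak is its signal value, set by the authors' peak caller on a scale that the sources used here do not state. A gene takes the signal of its strongest promoter peak. The bound members had a median of 177.2 with quartiles of 117.8 and 270.3. All bound genes had a median of 170.6 with quartiles of 113.6 and 260.4. Of the 24, 12 lay above the overall median, 8 above the upper quartile and 6 below the lower quartile, so the bound members spread over the range of all bound genes.

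Each replicate also had a peak list of its own, thresholded at the same IDR, and a longer ranking from before the threshold. The thresholded list held 4113 peaks (median signal 68.6) in replicate 1 and 7542 (median signal 77.7) in replicate 2. Replicate 1 bound 33.4% of the genes and 19 members, and replicate 2 bound 43.5% and 21 members. The authors' conservative list bound 39.8% of genes and 21 members. The values of the replicates below come from their rankings and are not normalised to each other. The number of reads behind them is unknown here.

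**Figure D2:**
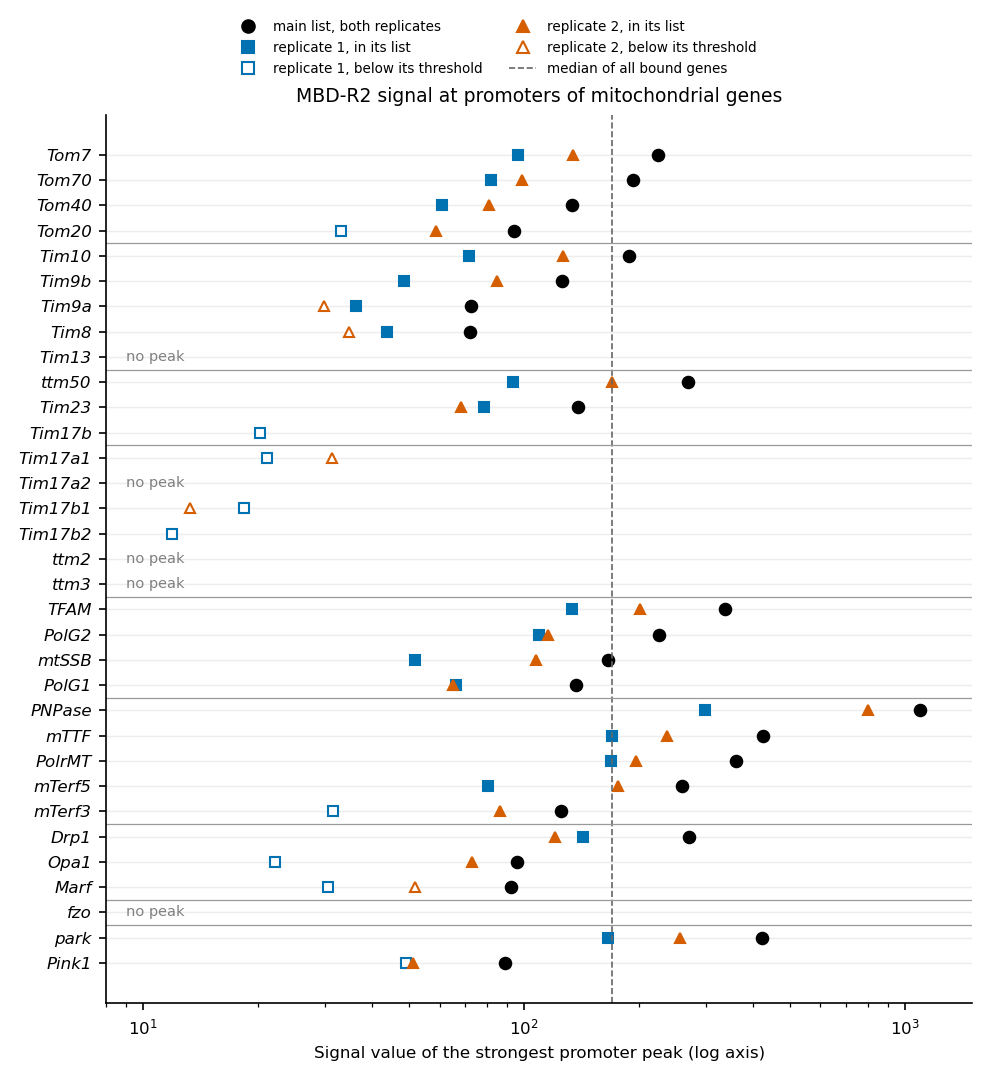
Promoter signal value, on a log axis, of each member in the main list (circles) and in the rankings of replicate 1 (squares) and replicate 2 (triangles), grouped by role. Open symbols are below that replicate's own threshold, and the dashed line is the median of all bound genes, 170.6. PNPase at 1096.9 stands above all other members, and the weakest, Tim8 at 72.3 and Tim9a at 72.4, are small TIM genes on the X chromosome.

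In the main list the genes of mitochondrial RNA included the 2 strongest promoters among the members, PNPase and mTTF. Second place was nearly level, with 423.5 at mTTF and 422.5 at park. mTTF was the higher in replicate 1 (170.4 against 166.1) and park in replicate 2 (257.2 against 237.6). PNPase, the polynucleotide phosphorylase that degrades RNA in mitochondria, had a signal of 1096.9 in the main list, 298.9 in replicate 1 and 797.6 in replicate 2. It ranked 11th of the 6126 bound genes, and it was the highest member in both replicates. Its peak (chr3R:31404408-31404821) lay at an internal start site, which is 712 bp downstream of the first TSS in the annotation. The summit was 81 bp downstream of that internal TSS. A separate peak at the first TSS had a signal of 64.8.

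mTTF, which binds mitochondrial DNA between gene clusters and ends transcription there, had a signal of 423.5, with 170.4 in replicate 1 and 237.6 in replicate 2. Its summit was 14 bp downstream of the TSS, and the stretch printed above has E-boxes on both sides of that TSS. PolrMT, the mitochondrial RNA polymerase, reached 359.3, with 169.3 and 196.6 in the replicates. mTerf5, of the mitochondrial termination factor family, reached 260.5, with 80.5 and 176.0. mTerf3 of the same family was the weakest of the group at 125.1, with 31.5 in replicate 1, below that replicate's threshold, and 86.6 in replicate 2. Both mTerf genes had the summit within 40 bp of the TSS.

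Among the genes of mitochondrial DNA upkeep TFAM was the strongest. TFAM, which packages mitochondrial DNA and starts its transcription, had a signal of 337.2, with 133.8 in replicate 1 and 201.1 in replicate 2, and its summit lay 6 bp upstream of the TSS. PolG1 and PolG2 encode the catalytic and accessory subunits of the mitochondrial DNA polymerase. Their TSSs are 5333 bp apart on chromosome arm 2L, and each had a peak of its own, with summits 5428 bp apart. PolG1 had a signal of 137.0, with 66.4 and 64.9 in the replicates. PolG2 had a signal of 225.8, with 109.2 and 115.4. The value at the accessory subunit gene was thus higher than that at the catalytic subunit gene in both replicates, but only the PolG2 peak is shared with other genes. The PolG2 summit is equally near the TSS of GatC, which starts at the same position, so the peak belongs to both by distance. That summit also lay 175 bp from the TSS of Polr2C on the opposite strand. mtSSB, the single-stranded DNA-binding protein, had a signal of 165.9, with 51.8 and 107.3, and its summit lay 317 bp upstream of the TSS with no nearer coding gene.

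The outer membrane translocase genes lay in the middle and lower range. Tom40 encodes the channel. It had a signal of 133.6, with 61.0 in replicate 1 and 80.7 in replicate 2. The TSS nearest its only promoter summit was an internal one, 468 bp downstream of the first. Tom70, a receptor for proteins with internal targeting signals, had 193.2, with 82.1 and 98.5. Tom20, the receptor for presequences, had 94.2, with 33.0 in replicate 1, below its threshold, and 58.9 in replicate 2. As at Tom40, the TSS nearest its only promoter summit was internal, 444 bp downstream of the first. Tom7, a small subunit of the complex, had 224.2, with 96.2 and 134.5. The summit assigned to Tom7 was 496 bp upstream of its TSS and 13 bp from a TSS position that CG8229 and CG33199 share, so the highest value of the group rests on a peak nearer to other genes. Without Tom7, the order was Tom70, Tom40 and Tom20 in the main list and in both replicates.

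The small TIM chaperone genes included the weakest bound members. Tim10 had a signal of 188.6, with 71.8 and 126.4 in the replicates, and Tim9b had 125.6, with 48.4 and 84.7. Tim9a had 72.4, with 36.1 in replicate 1 and 29.9 in replicate 2, and Tim8 had 72.3, with 43.6 and 34.8. Tim9a and Tim8 passed the threshold of replicate 1 and not that of replicate 2. The Tim8 summit lay 287 bp from its TSS and 60 bp from that of hop, the JAK kinase gene on the opposite strand. Tim10 and Tim9b share their TSS positions with CG42497 and Pstk.

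Of the presequence translocase, Tim23, which forms the inner membrane channel, had a signal of 138.6, with 78.5 in replicate 1 and 68.4 in replicate 2. ttm50, the receptor that passes presequences to the channel, had 270.2, with 93.7 and 169.9. Its summit was 142 bp from its own TSS and 137 bp from that of CG2712, a difference of distance too small to place the peak.

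The fusion and fission genes were split. Drp1, the dynamin-related protein that divides mitochondria, had a signal of 270.6, with 143.2 in replicate 1 and 120.3 in replicate 2. Opa1, which fuses the inner membrane, had 95.8, with 22.2 in replicate 1, below its threshold, and 72.9 in replicate 2. Marf, the mitofusin of the outer membrane, had 92.4, with 30.6 and 51.8. Marf was the 1 bound member that passed the threshold of neither replicate, with a −log10 IDR of 1.12 in replicate 1 and 0.26 in replicate 2 where 2 is needed. The fission gene was higher than both fusion genes in each replicate.

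The quality control pair was also unequal. park, the ubiquitin ligase parkin, had a signal of 422.5, with 166.1 in replicate 1 and 257.2 in replicate 2, and its summit lay 1 bp from a TSS. Pink1, the kinase that recruits and activates parkin on damaged mitochondria, had 88.9, with 48.9 and 51.2. Pink1 missed the threshold in replicate 1 with a −log10 IDR of 1.88. As at PNPase, the stronger of its peaks was at an internal TSS, 557 bp downstream of the first, where a separate peak had a signal of 51.9. The park signal was higher than that of Pink1 in each replicate.

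The members differed in how evenly the replicates called them. Of the 24 bound members 17 passed in both replicate lists, against 73% of all bound genes. Tim8 and Tim9a passed in replicate 1 only, Opa1, Pink1, Tom20 and mTerf3 in replicate 2 only, and Marf in neither. Among all bound genes 1.67% passed in replicate 1 only and 21.5% in replicate 2 only. None of the 9 unbound members passed in either list.

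The signal was higher in replicate 2 than in replicate 1 at 19 bound members and lower at 5. The 5 were Tim8, Tim9a, Drp1, Tim23 and PolG1, with ratios of replicate 2 to replicate 1 between 0.797 and 0.976. Among the 6000 bound genes with a value in both rankings, replicate 1 was the higher at 5.75%. The members' median ratio was 1.45, within the quartiles of 1.32 and 2.03 over all bound genes, whose median was 1.63. The highest ratio was 3.28 at Opa1. With 1 ratio per gene from 1 pair of samples, no error can be given for it.

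**Figure D3:**
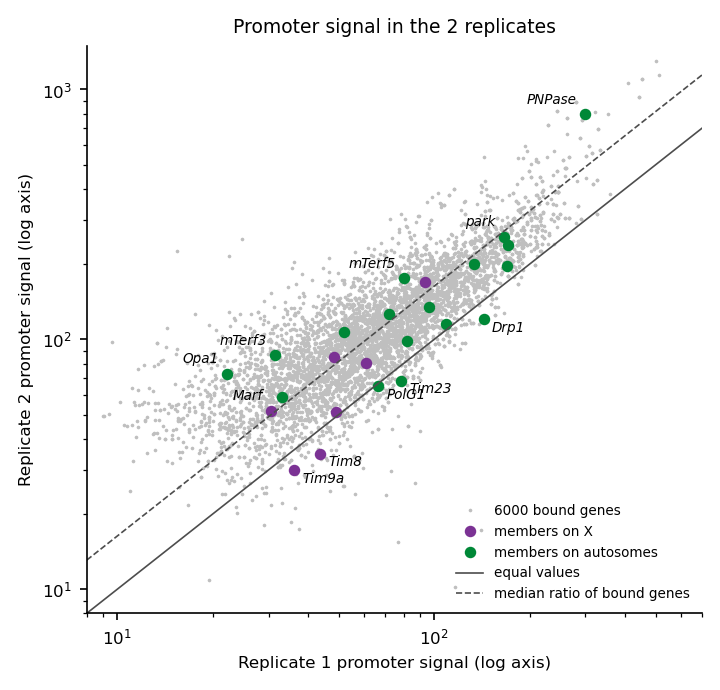
Promoter signal value in the ranking of replicate 1 against that of replicate 2, both on log axes, for the bound members (coloured by X or autosome) and for all bound genes (grey). The solid line marks equal values and the dashed line the median ratio of 1.63. Most members lie above the solid line, and Drp1, PolG1, Tim23, Tim8 and Tim9a lie below it.

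The X-linked members were all bound and were mostly weak. The 7 on the X chromosome are ttm50, Tom40, Tim9b, Marf, Pink1, Tim9a and Tim8, and their median signal was 92.4. The 1041 bound genes of the X had a median of 138.8, and 6 of the 7 members lay below it, ttm50 being the exception. Of the 26 members on autosomes 17 were bound, with a median of 224.2, and 11 of these lay above the median of 178.1 over the 5085 bound genes on the other arms. Bound shares over all coding genes were 47.4% on the X and 43.5% on the other arms. In both replicate lists were 3 of the 7 X-linked members, against 66.7% of bound X genes, and 14 of the 17 autosomal ones, against 74.2%. The labels record no sex for the embryos.

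**Figure D4:**
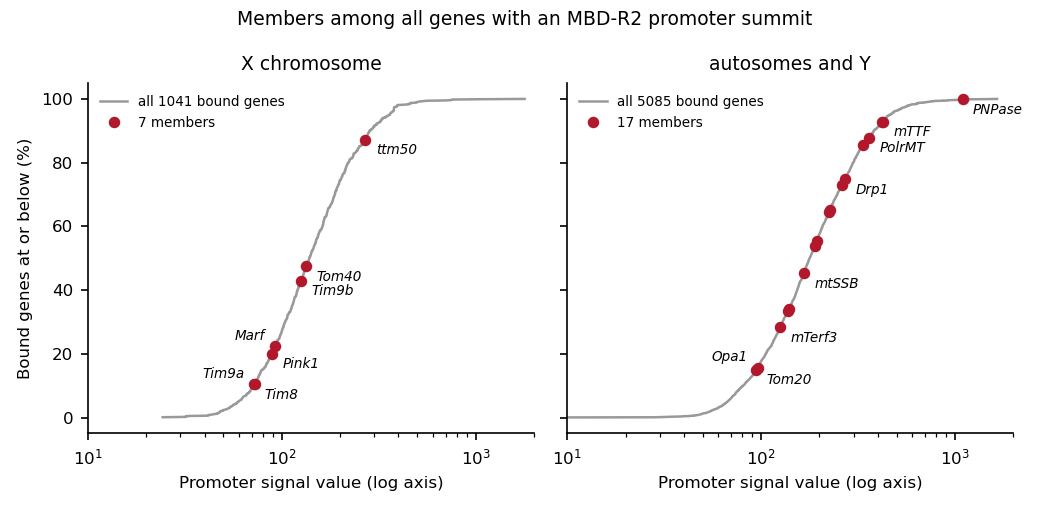
Cumulative share of all bound genes, in percent, by promoter signal value on a log axis, for the X chromosome and for the other arms, with the bound members marked. On the X, 6 of 7 members lie below the median of 138.8, and on the other arms the 17 members range from Tom20 at 94.2 to PNPase at 1096.9.

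Summits at the members sat close to start sites. The median distance from summit to TSS was 38.5 bp for the 24 bound members and 67 bp for all bound genes. Within 100 bp were 19 members, against 62.2% of all bound genes. The summit fell in the 5′ UTR of the member at 14 genes, upstream of it at 9 and in a coding exon at Tim9b. Peaks were between 182 and 440 bp wide, with a median of 440 bp. Many had exactly this largest width with the summit at the centre, so width is not read here as the extent of binding.

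The members shared peaks with other genes about as often as bound genes in general. At 14 of the 24 bound members the strongest summit also lay within 500 bp of a TSS of another protein-coding gene, and over all bound genes this share was 50.9%. Another gene was nearer to the summit at 3 members, Tim8, Tom7 and ttm50, against 24.1% of all bound genes. At PolG2, Tim10 and Tim9b another gene shared the TSS position. PolG2 and Tim10 also had head-to-head neighbours, Polr2C at PolG2 and both Ppcdc and CG42496 at Tim10. The nearer genes at Tim8, Tom7 and ttm50 lay head to head with the member too. At the other 8 members the neighbour lay head to head with the member: the park summit was 63 bp from the TSS of Targ3, that of TFAM 37 bp from CG5412 and that of mTerf5 79 bp from Non3. The median signal was 206.4 at the 14 members with a shared peak and 152.2 at the 10 with a peak of their own. All bound genes showed the same order, with 205.8 for shared and 143.8 for single peaks. PNPase, mTTF and Drp1 had peaks that no other coding gene shared.

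**Figure D5:**
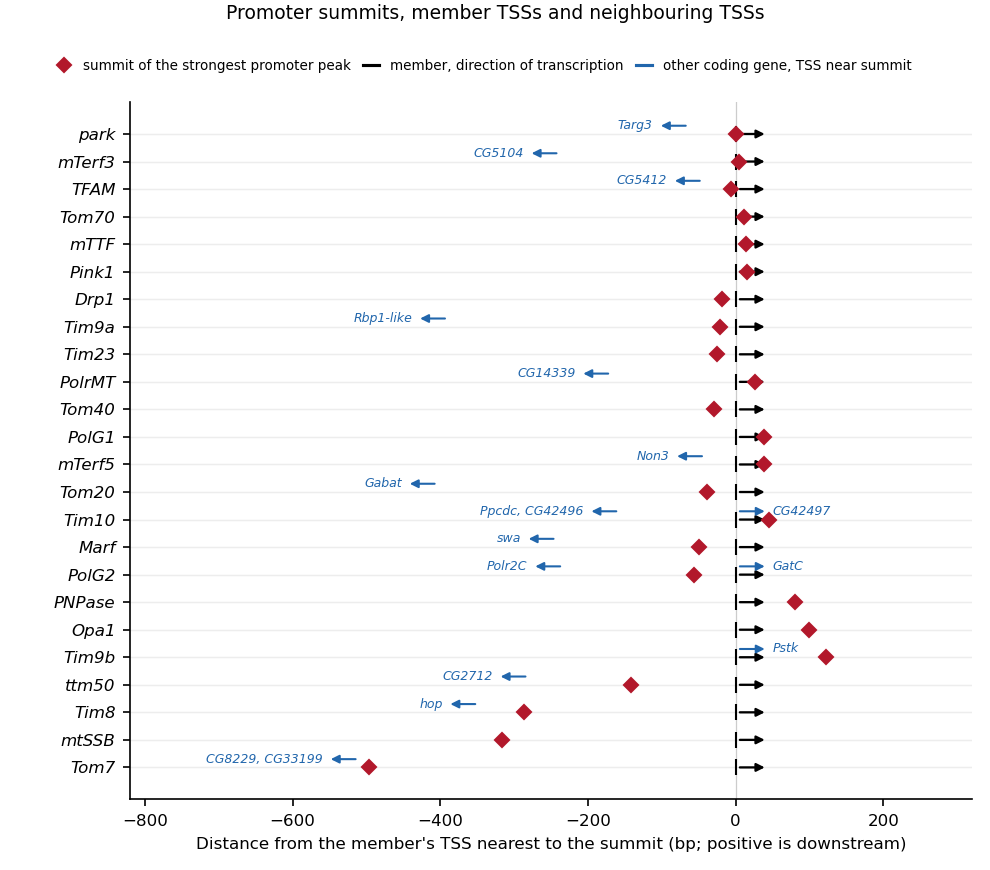
Position in bp of the strongest promoter summit (diamonds) relative to the member's nearest TSS (0, black arrows in the direction of transcription), with the TSSs of other protein-coding genes within 500 bp of the summit as blue arrows. Summits of 19 members lie within 100 bp of the TSS, and the Tom7 summit lies 496 bp away, beside CG8229 and CG33199.

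The 9 unbound members differed in how far they were from a peak. Tim17a1 missed the limit by 5 bp: its nearest summit, of signal 55.1, lay 505 bp downstream of the TSS in a coding exon (chr3R:12363955-12364394). The same interval held peaks of 21.1 and 31.4 in the rankings of replicates 1 and 2, and none in either thresholded list. Tim17b1 had a summit of signal 69.1 in a coding exon 711 bp downstream (chr3R:5300636-5301075), with 27.4 and 32.7 in the rankings and none in the thresholded lists. Weaker peaks of 18.4 and 13.3 in the rankings lay within 500 bp of its TSS. Tim17a2 had a summit of signal 92.1 lying 884 bp upstream (chr3R:5263356-5263795), with 44.2 in the ranking of replicate 1 and 48.5 in the thresholded list of replicate 2.

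The other 6 unbound members were farther from any main-list summit. Tim17b2 was 5879 bp from the nearest, fzo 8135 bp, Tim13 8510 bp, ttm2 10239 bp, ttm3 42268 bp and Tim17b 54844 bp. Tim13 encodes the partner of Tim8 in a chaperone complex of the intermembrane space, and the pair thus differed, since Tim8 was bound, though at a peak nearer to hop. Below the threshold, the ranking of replicate 1 held a peak of signal 20.3 at Tim17b and one of 11.9 at Tim17b2. Duplicate genes can lose reads where their sequence is repeated, so the share of 32-base words that occur once on the chromosome arms was counted in each promoter. It was 100% for every member except Tim17b, at 89.6%. Over whole genes it was 65.2% for Tim17b, 67.5% for Tim17a2 and 80% for mTerf5, and 100% for the other members.

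The motifs printed above were counted from 250 bases before to 50 bases after the 5′-most TSS, on both strands. The DRE was in 2 of the 24 bound member promoters, Tim9a and mTerf5 (8.33%), against 17.9% of all bound and 9.37% of all promoters. The Motif 1 core was in 3, Marf, Pink1 and mTerf3 (12.5%), against 12.5% of all bound and 6.04% of all promoters. The E-box was in 6 (25%), against 25.1% of bound and 17.7% of all. GAGAG, the letters bound by GAGA factor, was in 8 (33.3%), against 24.4% and 29.8%. TATAAA anywhere in the window was in 15 (62.5%), against 46% and 45.9%. Among the 9 unbound members the DRE and the Motif 1 core were in none and the E-box was in 1, Tim13. Over all unbound promoters the shares were 2.6%, 0.979% and 12%, so counts this low are near the background. GAGAG was in 2 of the 9, against 34.1% of all unbound promoters, and TATAAA in 3, against 45.9%.

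Around the summits themselves, in 301 bases, the E-box was in 8 of the 24 members (33.3%) and in 27.2% of the 5578 distinct promoter summit regions. The Motif 1 core was in none of the 24, against 10.4%, and the DRE in 2 (8.33%), against 14.3%. GAGAG was in 7 (29.2%), against 29.1%, and TATAAA in 12 (50%), against 33.8%. The word TGGCAAC was in 7 member summit regions (29.2%), and in 12.4% of all of them. These 7 were Drp1, PNPase, TFAM, Tim8, Tim9a, mTerf3 and park, with a pair of copies each at Drp1 and park. In the promoter window it was in 5 of the 24 bound members (20.8%), against 12.3% of all bound promoters. There it was in none of the 9 unbound members, against 7.74% of all unbound promoters. Since the word was noticed in these sequences and then counted in them, its share is a description only. A match is a run of letters and not a bound site.

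Further genes of the same pathways were mostly bound. Of 64 listed symbols 45 were matched to the annotation, 2 of them through a RefSeq synonym, and 39 of the 45 were bound, with a median signal of 204.6, beside 44.1% bound and a median of 170.6 over all genes. For import 8 of 10 were bound. The highest were Lon, a matrix protease, at 674.0, CG6878, listed as Romo1, at 341.7, and Trap1, a matrix chaperone, at 247.3, where another gene lay nearer to the summit. All 14 genes of mitochondrial DNA and RNA were bound, led by SLIRP2 at 859.3, mldr at 496.1 and EndoG, a mitochondrial nuclease, at 289.1. For dynamics and quality control 17 of 21 were bound, led by Chchd3, a crista junction protein, at 318.5. Next were YME1L, an inner membrane protease whose summit was nearer to another gene, at 280.9, and Miro, which links mitochondria to motors, at 267.1. The summits of Lon, SLIRP2, mldr and Miro also lay within 500 bp of another coding gene's TSS, with no other gene nearer.

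The 6 companions without a promoter peak were tomboy20, tomboy40, Tango11, Fis1, clu and Phb1. tomboy20 and tomboy40 are second copies of Tom20 and Tom40, whose principal copies were both bound. Tango11 is the fly counterpart of the fission receptor Mff, and Fis1 is another fission factor. Fis1 had a peak of 58.5 in the list of replicate 1 alone. The fission enzyme gene Drp1 was thus bound, while neither of these was called in the main list.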

How the data were processed

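ChIP-seq peak lists for 2 biological replicates of whole embryos were used as deposited, on dm6 per the labels. The aligner, the peak caller, read depth and signal scaling are not stated, being not given in the sources used here, and possible control libraries were not analysed here. Per the file headers and listings, the authors deposited a ranking and a thresholded list for each replicate and for both together, plus a conservative list. The signal of each peak is the authors' value. The deposited score is a scaled IDR, at least 830 (IDR 0.01) in thresholded lists, and the rankings deposited by the authors carry the −log10 IDR.

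Computed here, with Python 3.11.15, pandas 2.3.3 and numpy 2.4.6: distances from summits to all TSSs of Ensembl release 115, after checking that peaks lie within the chromosome arms, gene calls within 500 bp, motif matches and uniqueness of 32-base words in the RefSeq Release 6 sequence. The assignment was tested on simulated peaks, and those planted within 500 bp of a TSS were recovered. That test did not check distances or wrong assignments. No test was made over genes. Every member is named, of companion genes the 3 strongest per list and all unbound ones. The members and lists were chosen with earlier results of these data known. The alternatives were other lists, each replicate alone, the highest score, stronger peaks, other windows, the 5′-most TSS and the nearest gene only.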

Additional observations from a re-analysis of the deposited data

How the results depend on the processing

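The number of bound members stayed within 1.5 times of 24 in every alternative run, from 18 to 27. With 33 members that limit could not be passed upward, and several of the runs use parts of the same peaks. It was 21 in the conservative list (39.8% of all genes), 19 with replicate 1 alone (33.4%) and 21 with replicate 2 alone (43.5%). It was 23 at the highest score (41.8%) and 18 with only peaks at or above the list's median signal of 117.9 (32.1%). It was 21 at 250 bp (39.5%), 27 at 1000 bp (47.5%), 24 at the 5′-most TSS (42.1%) and 21 when a peak went to its nearest coding gene only (35.7%). At 1000 bp, Tim17a1, Tim17a2 and Tim17b1 became bound, so 3 of the 7 further copies were. Without the threshold, an alternative chosen after seeing the data, 26 members and 76.9% of all genes were bound. Tim8 and Tim9a were lost in the conservative list, with replicate 2 alone and above that median, and Tim9a also at the highest score. Opa1 was lost in the conservative list, with replicate 1 alone and above that median. Marf was lost with either replicate alone and above that median. Pink1 and Tom20 were lost with replicate 1 alone and above that median, and mTerf3 with replicate 1 alone. Tim8 and Tom7 were lost at 250 bp and with the nearest gene only. mtSSB was lost at 250 bp, and ttm50 with the nearest gene only. Within 1000 bp Marf takes a stronger peak of 194.1.

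The median signal of 177.2 moved to between 82.1 and 115.4 with 1 replicate left out, in lists not normalised to each other, to 225.0 with peaks above the median only, which removes weak ones by construction, and to 152.2 at the 5′-most TSS, where PNPase and Pink1 take their weaker peaks. For the count of shared peaks the nearest-gene alternative gives no value. No paired analysis was possible because there is 1 group. Depth is unknown, so the absence of a peak is not the absence of binding.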
